A study of Mus musculus with 3 samples.

Results

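The small nucleolar and Cajal body RNAs described here are the gene entries of the GENCODE M21 annotation whose symbol starts with Snord, Snora or Scarna followed by a digit. They number 150 of 55536 gene entries and carry 147 symbols, because Snora16a, Snora43 and Snord80 each have 2 overlapping entries. Box C/D RNAs (Snord) contributed 99 entries, box H/ACA RNAs (Snora) 42 and Cajal body RNAs (Scarna) 9. The annotation classes 142 of them as snoRNA, 7 as scaRNA and 1, Snord43, as a microRNA. The rule used names only, but it was chosen with earlier results of these data known. A further 1409 snoRNA and scaRNA entries with other symbols served for comparison.

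The RNA came from macrophages, primary cells of the C57BL/6J mouse strain derived from bone marrow, that had been exposed for 120 min to lipid A at 100 ng/ml. Lipid A is the membrane anchor of bacterial lipopolysaccharide. Total RNA of the cytosolic fraction was depleted of ribosomal RNA, and 1 library was made from 1 µg for each of 3 biological replicates, with a labelled size range of 250 to 400. All 3 libraries carry 1 donor identifier, and neither sex nor age was collected. They form a single group: untreated cells and other cell fractions were not analysed here, so no value below measures a response to lipid A or an enrichment in the cytosol. Nothing in the labels says how separate the cultures were, so the spread between the libraries may be partly technical.

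Small nucleolar RNAs are stable noncoding RNAs that pair with a target RNA and bring a modifying enzyme to a chosen nucleotide. Box C/D RNAs are named for their C box (TGATGA) near the 5′ end and D box (CTGA) near the 3′ end and guide 2′-O-methylation, while box H/ACA RNAs end in an ACA motif and guide pseudouridylation. Most act on ribosomal RNA in the nucleolus, a few are needed for cleavage of ribosomal RNA precursors, and the small Cajal body RNAs act on spliceosomal RNAs. In mammals most are cut from introns of host genes that often encode ribosomal proteins or have no other known product.

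The sequences of the members on which the measurements turn are given 5′ to 3′ as annotated in GENCODE M21 on mm10. Capitals mark TGATGA within the first 25 bases, CTGA within the last 25 bases, or ACA within the last 8 bases. Both ends of Scarna10 and the whole of Snord17 are shown because they were the Cajal body and box C/D members with the most counts. Scarna10 lies at chr6:125186359-125186683 on the minus strand and Snord17 at chr2:144265979-144266216 on the minus strand.
Scarna10 first 40 bases: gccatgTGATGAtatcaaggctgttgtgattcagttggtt
Scarna10 last 40 bases: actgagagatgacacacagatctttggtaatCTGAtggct
Snord17: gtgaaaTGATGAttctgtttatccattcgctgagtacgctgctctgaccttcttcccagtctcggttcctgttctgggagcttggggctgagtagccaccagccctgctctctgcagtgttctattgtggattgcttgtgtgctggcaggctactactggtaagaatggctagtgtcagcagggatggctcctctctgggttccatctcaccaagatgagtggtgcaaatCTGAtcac

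Snora73a and Snora73b are shown because they are near copies between which fragments can be split. They lie at chr4:132352775-132352979 on the minus strand and at chr4:132352322-132352526 on the minus strand, both within the host gene Snhg3. Of 205 aligned bases, 198 were identical and 7 differed, an identity of 96.6%.
Snora73a: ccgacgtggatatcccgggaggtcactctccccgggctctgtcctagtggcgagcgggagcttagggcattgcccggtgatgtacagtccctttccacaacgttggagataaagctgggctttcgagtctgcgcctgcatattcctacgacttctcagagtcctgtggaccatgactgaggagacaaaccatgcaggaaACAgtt
Snora73b: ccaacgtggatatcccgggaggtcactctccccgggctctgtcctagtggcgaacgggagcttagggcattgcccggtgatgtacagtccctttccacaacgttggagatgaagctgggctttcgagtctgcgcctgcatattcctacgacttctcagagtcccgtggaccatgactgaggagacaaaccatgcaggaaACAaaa

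Snord22, Snord118, Snord15a, Snord15b and Snora57 are shown because their lengths, between 126 and 148 nt, lie close to a length edge of the gene tables that is described below. Snord22 lies at chr19:8725866-8725991 on the plus strand and Snord118 at chr11:69073427-69073561 on the plus strand, and both have CTGA but no TGATGA in the searched windows. Snord15a lies at chr7:99482785-99482932 on the minus strand, Snord15b at chr7:99479563-99479707 on the minus strand and Snora57 at chr19:8888538-8888685 on the minus strand.
Snord22: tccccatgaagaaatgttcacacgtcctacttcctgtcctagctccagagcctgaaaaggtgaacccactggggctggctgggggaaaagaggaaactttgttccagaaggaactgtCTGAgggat
Snord118: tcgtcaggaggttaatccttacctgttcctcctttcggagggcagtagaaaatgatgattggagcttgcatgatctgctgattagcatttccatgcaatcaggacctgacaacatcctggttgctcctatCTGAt
Snord15a: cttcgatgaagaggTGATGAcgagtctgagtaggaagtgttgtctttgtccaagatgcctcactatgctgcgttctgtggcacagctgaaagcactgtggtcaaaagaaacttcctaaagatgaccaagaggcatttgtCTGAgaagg
Snord15b: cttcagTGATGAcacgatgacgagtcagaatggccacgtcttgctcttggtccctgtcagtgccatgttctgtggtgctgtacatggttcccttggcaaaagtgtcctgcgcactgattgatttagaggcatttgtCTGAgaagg
Snora57: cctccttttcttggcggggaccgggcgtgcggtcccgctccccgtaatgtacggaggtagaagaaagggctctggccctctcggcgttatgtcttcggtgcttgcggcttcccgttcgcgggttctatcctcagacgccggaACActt

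The boxes set most box C/D entries apart from box H/ACA entries by sequence, whereas some Cajal body entries carried the one kind and some the other. On the sense strand, TGATGA in the first 25 bases together with CTGA in the last 25 was found in 69 of 99 box C/D entries (69.7%), in 0 of 42 box H/ACA entries and in 4 of 9 Cajal body entries. The pair occurred in 17.3% of the other snoRNA and scaRNA entries and in 0.305% of all annotated transcripts of at least 50 bases. The D box was the more constant element, present in 98 of the box C/D entries against 70 for the C box. ACA in the last 8 bases was found in 40 of 42 box H/ACA entries (95.2%), in 7.07% of box C/D entries and in 4 of 9 Cajal body entries. It occurred in 49.0% of the other snoRNA and scaRNA entries and in 11.5% of all transcripts. In every member the windows for C and D boxes lie apart, and a match describes the letters of the window only.

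Total expected counts, the estimated number of fragments over all features of a library, were 31152786, 114031592 and 59693298 in replicates 1, 2 and 3. All 8 macrophage markers were detected, and of the markers of T, B, natural killer, erythroid and stromal cells and neutrophils, Cd4 (18.2 ± 0.666 TPM) and S100a8 (8.32 ± 1.26 TPM, SD, n = 3) were the only ones detected. The other T cell markers, Cd3e and Trac, stayed at or below 0.03 TPM, and Ly6g, a neutrophil marker, and both erythroid markers were at 0 in all 3 libraries. Detected means at least 1 TPM (the authors' length-scaled level, with a fixed sum per library) in every library.

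Few of the named small RNAs were seen in the gene tables, and the longest were seen best. An expected count above 0 in at least 1 library was found for 22 of the 150 entries: 4 of 99 box C/D, 13 of 42 box H/ACA and 5 of 9 Cajal body RNAs. That is 14.7% of the family, against 3.62% of the other snoRNA and scaRNA entries and 41.0% of all gene entries. Detection reached 10 entries (6.67%), made up of 3 box C/D RNAs (3.03%), 3 box H/ACA RNAs (7.14%) and 4 Cajal body RNAs (44.4%). The same threshold was met by 1.56% of the other snoRNA and scaRNA entries and by 15.7% of all gene entries. Of the 22, 11 had at least 10 counts on average, and the other 11 had at most 1.23 on average. Taking 3 counts as the limit that a count of 0 allows, the floor was 0.0963, 0.0263 and 0.0503 CPM (expected counts scaled to a fixed library total) in replicates 1, 2 and 3. It covers counting error in the gene tables only and sets no limit on an RNA whose effective length, explained next, is 0 or close to 0. In bulk RNA, fewer cells carrying an RNA and less RNA per cell cannot be told apart.

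The classes differ in length, and the effective length follows it. Effective length is the number of positions at which a fragment of the library could start within an RNA, and TPM divides by it. The median annotated length was 84 nt for box C/D (range 64 to 238), 132.5 nt for box H/ACA (121 to 205) and 140 nt for Cajal body RNAs (70 to 414). The effective length was listed at 0 in all 3 libraries for 95 of 99 box C/D entries (96.0%), 3 of 42 box H/ACA and 2 of 9 Cajal body entries, against 8.74% of all genes. The longest member with an effective length of 0 had 132, 127 and 132 nt in replicates 1, 2 and 3, and the shortest with a value above 0 had 133, 128 and 133 nt. Above that edge the effective length was tiny: its median over the box H/ACA entries was 0.535, 1.465 and 0.505 nt. The mean fragment implied by long single-transcript genes was 235, 214 and 227 nt, and 5 of the 150 members are longer than that in any library.

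Read by length, the effective length had a sharp edge, while the counts were already sparse over a range of lengths above it. All 96 entries shorter than 120 nt, among them 94 box C/D RNAs, had an effective length of 0 and 0 counts in every library. From 120 nt to under 140 nt, 8 of 38 entries had counts and none was detected. From 140 nt to under 200 nt, 7 of 9 had counts and 3 were detected, and all 7 entries of 200 nt or more were detected. Those 7 RNAs held 95.7%, 97.3% and 96.8% of the family's counts in replicates 1, 2 and 3, and 73.3%, 74.1% and 71.8% of its TPM. For the 50 members with an effective length above 0 in at least 1 library, 21 had counts and 29 did not. Of the 128 members with 0 counts in every library, 99 had an effective length of 0 in all 3.

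**Figure D1:**
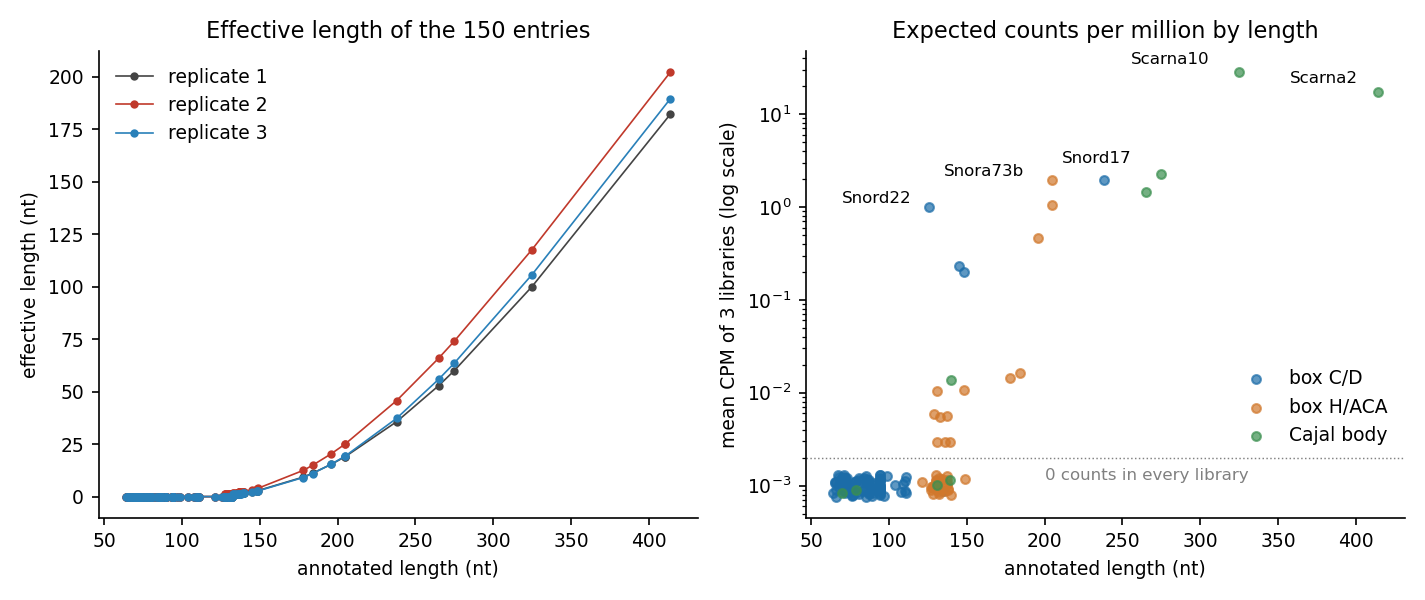
Effective length (nt) of the 150 entries against annotated length (nt) in each library, left, and mean CPM over 3 libraries (log scale) against annotated length, right; points are entries, coloured by class on the right, and entries with 0 counts are drawn with vertical scatter under the dotted line. Effective length is 0 up to 127 nt in replicate 2 and 132 nt in replicates 1 and 3, and Snord22 at 126 nt is the only member with 10 or more counts on average left of that edge.

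The family took a small share of each library. Its entries summed to 1954, 4205 and 4157 expected counts in replicates 1, 2 and 3, which is 62.7, 36.9 and 69.6 CPM (56.4 ± 17.3, SD, n = 3). On the TPM scale the sums were 568, 224 and 572 TPM, or 0.0455% ± 0.0200 of all TPM, against 0.00564% ± 0.00173 of all counts. The 1409 other snoRNA and scaRNA entries summed to 118 ± 27.4 CPM. By either unit the family was lowest in replicate 2.

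The Cajal body class held most of the family's fragments. Its share of the family's counts was 86.2%, 91.5% and 87.0% in replicates 1, 2 and 3, but its share of the family's TPM was 49.6%, 58.1% and 47.1%. Box C/D RNAs held 6.50%, 3.54% and 6.90% of the counts and 25.3%, 18.5% and 29.6% of the TPM. Box H/ACA RNAs held 7.25%, 5.01% and 6.06% of the counts and 25.04%, 23.4% and 23.4% of the TPM. Scarna10 and Scarna2 alone made up 81.5% ± 2.51 of the counts and 43.4% ± 4.91 of the TPM. In each library the step to TPM lowered the Cajal body share and raised both others, since the long RNAs gain less from division by effective length. Among detected members (3 box C/D, 3 box H/ACA and 4 Cajal body RNAs) the class medians in TPM were 38.5 ± 22.4, 27.7 ± 13.5 and 33.5 ± 11.0 (SD between libraries, n = 3). In replicates 1, 2 and 3 they were 51.9, 12.63 and 51.05 for box C/D and 32.1, 12.55 and 38.4 for box H/ACA. For Cajal body RNAs they were 39.0, 20.8 and 40.7. Box H/ACA was lowest in every library, by little in replicate 2, and the highest class differed between libraries. This order held in the gene tables only. In the second quantification the class medians of these same members on the log2(TPM + 1) scale were 1.53, 2.37 and 3.41, with box C/D lowest. In the gene tables they were 5.07, 4.70 and 4.90 on that scale. The same medians in CPM, which is not scaled for length, were 0.235 ± 0.0783, 1.05 ± 0.391 and 9.82 ± 2.66. Members detected in the second quantification itself numbered 6 box C/D, 2 box H/ACA and 4 Cajal body RNAs. Snord22, the highest box C/D RNA there at a mean of 12.1 TPM, was not among the members compared.

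**Figure D2:**
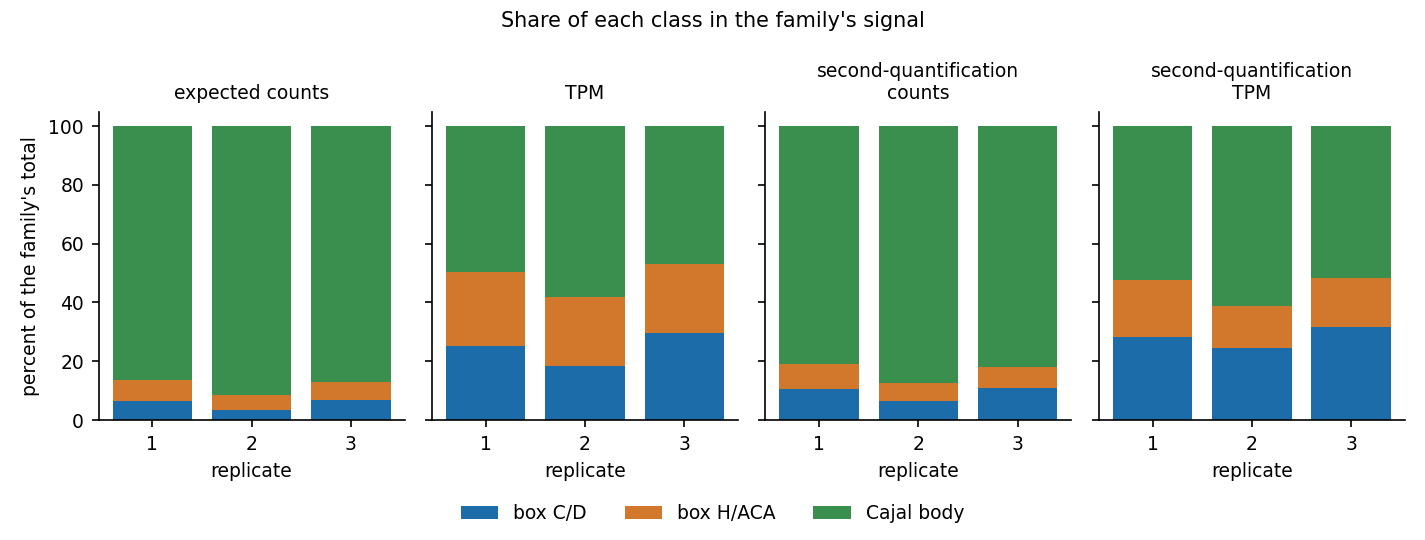
Share (percent) of the family's expected counts, TPM, and counts and TPM of the second quantification held by the box C/D, box H/ACA and Cajal body classes; each stacked bar is 1 library. The Cajal body RNAs hold 88.2% of the expected counts and 51.6% of the TPM on average, and 83.4% and 55.0% in the second quantification.

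Among the Cajal body RNAs, Scarna10 and Scarna2 stood above all other members. Scarna10, whose human counterpart carries both a C/D and an H/ACA domain and guides modification of the U5 spliceosomal RNA, had 979, 2168 and 2071 expected counts in replicates 1, 2 and 3. These are 31.4, 19.0 and 34.7 CPM and 174, 80.3 and 173 TPM, so replicate 2 was lowest although it had the most counts. Scarna10 ranked 291st of all gene entries by mean TPM and 4368th by mean CPM. Its boxes start at base 7 and base 317 of 325. Scarna2 is the longest member, at 414 nt, and its human counterpart guides methylation of the U2 spliceosomal RNA and is transcribed from its own promoter. It had 570, 1375 and 1300 counts, 18.3, 12.1 and 21.8 CPM, and 55.5, 29.6 and 60.4 TPM. No gene of another class holds it on the same strand, in contrast to Scarna10, which lies in Ncapd2, a condensin subunit gene.

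The other Cajal body RNAs fell into a measured pair and a group near 0. Scarna13, whose human counterpart is built of H/ACA domains, had 76, 204 and 151 counts and 22.5, 12.01 and 20.95 TPM. Scarna6, a mixed C/D and H/ACA RNA in human, had 59, 98 and 96 counts and 19.8, 6.48 and 15.1 TPM. In both, replicate 2 was the lowest library in TPM. Scarna3a had 1, 1 and 0 counts, and its TPM was 10.3, 1.79 and 0. A single count of this 140-nt RNA was thus worth 10.3 TPM in replicate 1, against 0.0974 TPM for a count of Scarna2. Scarna3b, Scarna8, Scarna9 and Scarna17 had 0 counts in all 3 gene tables.

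Of the box H/ACA RNAs, Snora73a, Snora73b and Snora74a carried nearly all counts. The Snora73 pair is known as U17, an RNA needed for cleavage of the ribosomal RNA precursor and not for pseudouridylation. Snora73b had 87.4, 109 and 124 expected counts and 81.4, 19.0 and 56.6 TPM, and Snora73a had 34.5, 72.3 and 84.2 counts and 32.1, 12.6 and 38.4 TPM. The counts are not whole, and because the copies are near-identical the model's split of fragments between them is uncertain. An annotated gene also lies on the opposite strand of both, and whether the counting used strand is not stated. Snora73b lies in an intron of Snhg3, and 77.6% of Snora73a lies in an annotated exon of it. Snora74a, known as U19, had 17.9, 21.7 and 37.5 counts and 20.6, 4.63 and 21.4 TPM, and it lies wholly within an annotated exon of its host, whose reads cannot be told apart from its own. The remaining 10 box H/ACA entries with counts had at most 2.37 in any library. Snora81 (0, 2.37 and 1.33 counts) and Snora23 (1, 0 and 1) were the longest of them, at 178 and 184 nt. Snora44 had 2 counts in replicate 2 only and was listed at 7.87 TPM there and at 0 in the other libraries.

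The box C/D class rested on 4 RNAs. Snord17, the longest of the class at 238 nt, had 63, 65 and 197 counts, 2.02, 0.570 and 3.30 CPM, and 31.3, 6.19 and 46.6 TPM. It varied most of all members in ratio terms: its highest library was 5.79 times the lowest in CPM and 7.52 times in TPM. Snord15a and Snord15b, the U15 RNAs that guide methylation of the large ribosomal RNA, lie in Rps3, a ribosomal protein gene. Snord15b lies wholly within an annotated exon of Rps3, so its counts, rank and ratio to Rps3 may include host reads, while Snord15a lies in an intron. Snord15b had 7.95, 16.8 and 17.9 counts but 60.7, 22.6 and 71.6 TPM, and Snord15a had 8, 11 and 15 counts but 51.9, 12.6 and 51.1 TPM. Their effective lengths were between 2.20 and 3.80 nt, so a count of Snord15b in replicate 1 was worth 7.63 TPM and a count of Scarna10 in the same library 0.177 TPM. By mean TPM Snord15b ranked 788th of all gene entries and stood above Scarna2 (827th), while by mean CPM, not scaled for length, it ranked 13336th against 5569th. The authors' credibility interval for Snord15b in replicate 1 ran from 25.8 to 111 TPM, against 160 to 181 TPM for Scarna10.

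Snord22 was the exception to the length edge. Known as U22, an RNA needed for processing of the small ribosomal RNA, it is 126 nt long and had 48.0, 56.0 and 57.0 expected counts in replicates 1, 2 and 3. Its effective length and TPM were 0 in all 3 gene tables, so a reader of TPM alone would find no Snord22. It lies wholly within an annotated exon of its host Snhg1, and reads of host transcripts and of the small RNA cannot be told apart there. Snora68 was the only other member with counts at an effective length of 0, with 1.87 in replicate 3. Snora57, with the same 148 nt and the same effective lengths as Snord15a, had 1, 0 and 0 counts and was listed at 6.48, 0 and 0 TPM.

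**Figure D3:**
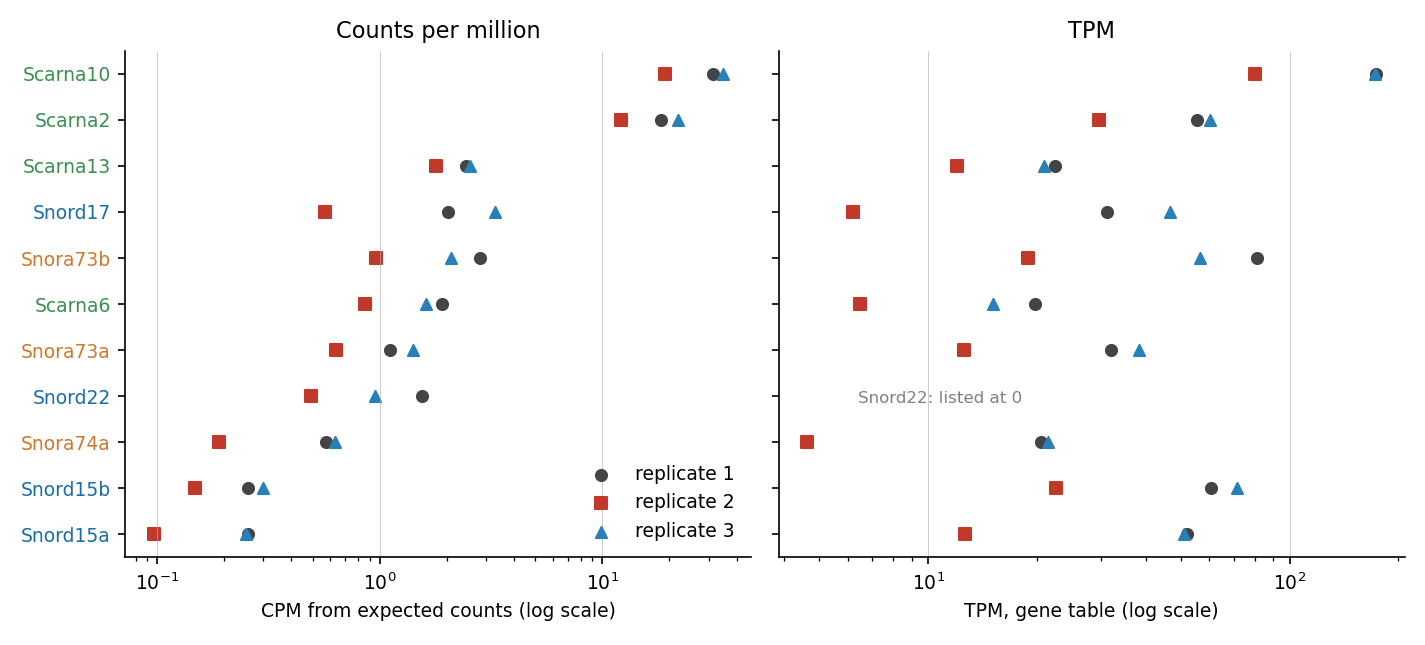
CPM and TPM (log scales) of the 11 members with at least 10 expected counts on average, ordered by mean CPM, with 1 point per library; Snord22 has no TPM point because its TPM is 0. For all 11 in CPM and all 10 in TPM, replicate 2 is the lowest point.

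The libraries differed in these RNAs by more than counting error for most members. Expected counts, rounded, were tested for each gene against Poisson counting error over the 3 libraries with edgeR's TMM scaling (a chi-square test), with Benjamini-Hochberg adjustment over all 14037 genes with at least 10 counts on average. The test was passed by 9 of the 11 members, and by 62.1% of all genes tested, so passing it did not set the members apart. By this chi-square test the adjusted p was 1.32e-81 for Scarna10, 2.95e-47 for Scarna2 and 6.77e-39 for Snord17. Snora73b (3.29e-13), Snord22 (1.59e-07), Scarna6 (3.91e-06), Snora73a (1.50e-05), Snora74a (3.63e-05) and Scarna13 (0.0140) also passed the chi-square test, whereas Snord15a (adjusted p = 0.0516) and Snord15b (0.164) did not. The median biological coefficient of variation that edgeR estimated, the spread beyond counting error, was 0.394 for the 11 members and 0.151 for all genes. It was 0.204 for Scarna10 and 0.2005 for Scarna2, the members with the most counts, and 0.253 to 0.545 for the others. Detected members had a median of 1.52 CPM, against 28.4 CPM for all detected genes. Members were not compared with genes of like abundance, so these values do not show a spread particular to the family. These comparisons are between libraries of 1 group, not between conditions.

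Fewer members, and fewer of all genes, passed the chi-square test without replicate 2, and the spread itself was not estimated again. All 11 members had their lowest CPM in replicate 2, as did 42.2% of all genes tested. All 10 members with a TPM above 0 had their lowest TPM there, as did 62.3% of all genes. Without replicate 2, the chi-square test was passed by 4 of the 11 members (Scarna10, Scarna2, Snord17 and Snord22), against 37.9% of all genes tested. Without replicate 1 it was passed by 10 of 11, with Snord15a added, against 45.3% of all genes tested, and without replicate 3 by 8 of the 10 members still tested, against 49.5%. Replicate 2 was also the deepest library and had the shortest implied fragments, and its effective lengths for the 10 members with a TPM above 0 were 1.11 to 1.47 times those of the lowest library. The part of depth and fragment length in the low values was not tested.

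Other nuclear RNAs moved with the family in part. Malat1, a nuclear speckle RNA, had 4589, 1315 and 5678 CPM in replicates 1, 2 and 3, and Neat1, the scaffold of paraspeckles, had 329, 99.0 and 325 CPM. Both were lowest in replicate 2, as was Xist, the RNA that coats the inactive X chromosome, at 173, 32.7 and 274 CPM. Rn7sk, a regulator of transcription elongation, had 15258, 12653 and 17434 CPM, and Rmrp, whose symbol has 2 gene entries, had 2270, 2052 and 3063 CPM. In these 2 RNAs replicate 2 was lowest by a smaller ratio. Rpph1, the RNA of ribonuclease P, had 7098, 8513 and 9901 CPM and was lowest in replicate 1. The part of nuclear RNA carried into the cytosolic fraction in the family's values was not tested.

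The second deposited quantification, made from the reads at transcript level, listed more of the family. Counts above 0 in at least 1 library were given to 81 of 150 entries: 43 box C/D, 30 box H/ACA and 8 Cajal body RNAs. That is 54.0% of the family, near the 56.2% of all gene entries, and against 18.4% of the other snoRNA and scaRNA entries. Some of these estimates were far below 1, such as 0.0657 for Snora24 in replicate 2. It included all 22 members counted in the gene tables and added 59, of which 4 had 10 or more on average. These 4 were Snord118 (9, 27 and 29 estimated counts in replicates 1, 2 and 3), Snord104 (7, 24 and 13), Snord53 (10, 10 and 16) and Snora31 (10, 5 and 19). Snord118 is the U8 RNA, needed for processing of the large ribosomal RNA; at 135 nt it had an effective length of 1.23, 1.75 and 1.17 nt in the gene tables with 0 counts. In the second quantification its effective length was 20.3, 21.4 and 22.5 nt and its level 3.02, 2.14 and 3.07 TPM, lowest in replicate 2. In neither quantification did 69 entries have any count. Of the 96 entries shorter than 120 nt, 40 received counts in the second quantification.

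Both quantifications gave the abundant members near-equal counts and unequal TPM. Scarna10 had 1009, 2263 and 2145 estimated counts in the second, close to its expected counts, but 66.0, 30.9 and 40.3 TPM. The mean TPM of the gene tables was 3.11 times that of the second quantification for Scarna10, 2.71 times for Scarna2, 6.36 times for Snora73b, 21.3 times for Snord15a and 27.96 times for Snord15b. The ratio was thus largest where the effective length of the gene tables was smallest among these members. For Scarna10 in replicate 1, however, effective length was near equal in the 2 quantifications, at 100 and 104 nt, yet TPM was 174 against 66.0. The TPM scales therefore differed beyond a member's own effective length, and that difference is part of every ratio. Its source was not tested. Snord22 had 62.8, 66.7 and 76.4 estimated counts and 21.6, 5.76 and 8.82 TPM in the second quantification, against 0 TPM in the gene tables. Both sets were made from the same reads, so they are no independent measurements. All 11 members were again lowest in replicate 2 by TPM, against 19.5% of all genes in that quantification.

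**Figure D4:**
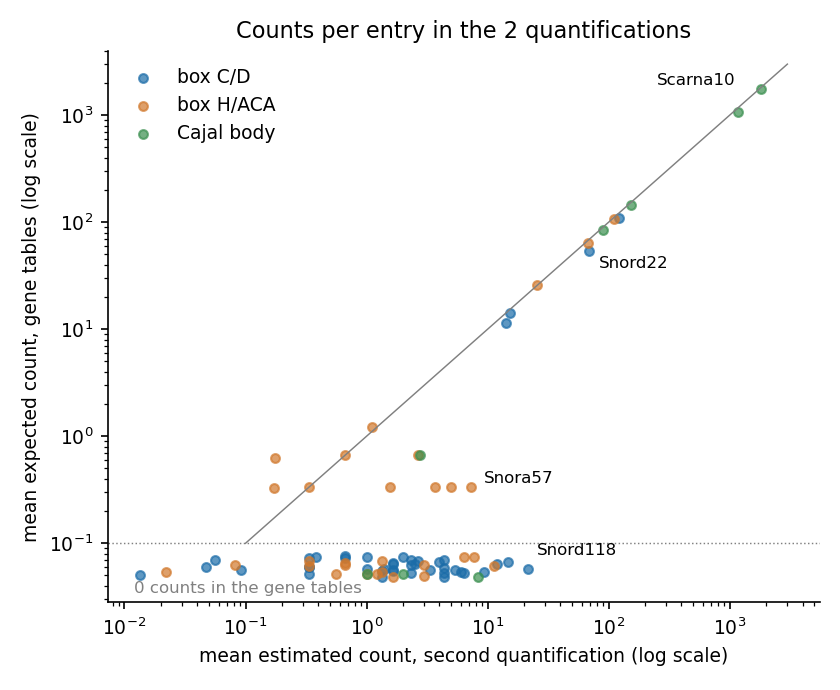
Mean expected count in the gene tables against mean estimated count in the second quantification for the entries counted in the second (both log scales, coloured by class), with the line of equality; entries with 0 counts in the gene tables are drawn with vertical scatter under the dotted line. The abundant members lie on the line, and 59 entries lie under the dotted line, Snord118 farthest to the right.

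Most host genes were detected, while most of the members they hold have an effective length of 0 and could receive no TPM. A gene of another class on the same strand holds 141 of the 150 entries, with 89 in protein-coding genes and 52 in other genes. By position, 76 entries lie in introns, 56 within annotated exons (retained introns included), 9 partly in exons, and 9 have no host. There were 90 host genes, of which 72 were detected, while 15.7% of all gene entries were detected. Of the 102 members with a detected host, 86 had no counts in the gene tables (84.3%), close to the 85.3% of all 150 members. Among the 102, 63 had an effective length of 0 in all libraries, against 100 of all 150 members (66.7%). The second quantification gave counts to 64 of the 102 (62.7%), against 54.0% of all members. Rpl13a, a ribosomal protein gene at 306 ± 27.2 TPM (SD, n = 3), holds Snord32a, Snord33, Snord34 and Snord35a, all with an effective length of 0 and without counts in the gene tables. Hspa8, a chaperone gene at 375 ± 14.3 TPM, holds Snord14c, Snord14d and Snord14e, and Gas5 at 19.8 ± 5.49 TPM holds 4 entries, again all with an effective length of 0. In the second quantification Snord35a had 2, 0 and 3 estimated counts and Snord14d 1.03, 2.01 and 1.13, the most in Rpl13a and Hspa8. There Snord33 and Snord14c stayed at or below 0.141, and Snord32a, Snord34 and all 4 Gas5 entries had 0. Over all 22 ribosomal protein hosts, whose median was 186 TPM, 4 of 31 members had counts (12.9%, against 14.7% of all members), and 18 of the 31 had counts in the second quantification. Snhg14, the host of the Snord116 cluster and known mainly from brain, was at 0.0467 ± 0.0306 TPM, and its 17 entries had 0 counts in both quantifications.

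Members stood above their hosts in some genes and below them in others. Of the 9 hosted members with a TPM above 0 in all libraries, 6 exceeded the host's TPM in every library and 2 stayed below it in every library. Scarna10 was 193, 106 and 240 times the TPM of Ncapd2 in replicates 1, 2 and 3, and 72.9% of it lies in an annotated exon of that gene. Scarna13 was 75.0, 42.9 and 116 times Snhg10. These 2 hosts were below 1 TPM in every library, at 0.9, 0.76 and 0.72 TPM for Ncapd2 and 0.3, 0.28 and 0.18 for Snhg10. The host of Snora74a, at 0.5, 0.34 and 0.69 TPM, was also not detected. Ratios to these hosts rest on a low denominator. Snord17 was 0.307, 0.0759 and 0.518 times Snx5, a sorting nexin gene at 91.1 ± 10.3 TPM. Snord15b lay on both sides of its host Rps3, at 0.976, 0.367 and 1.26 times. TPM favours the short partner, so the ratios were also taken from counts per annotated length. On that scale Scarna10 was still 63.5, 40.6 and 83.9 times Ncapd2, but Snord15b was 0.0178, 0.00924 and 0.0217 times Rps3, and 5 of the 9 stood above the host in every library and 3 below.

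**Figure D5:**
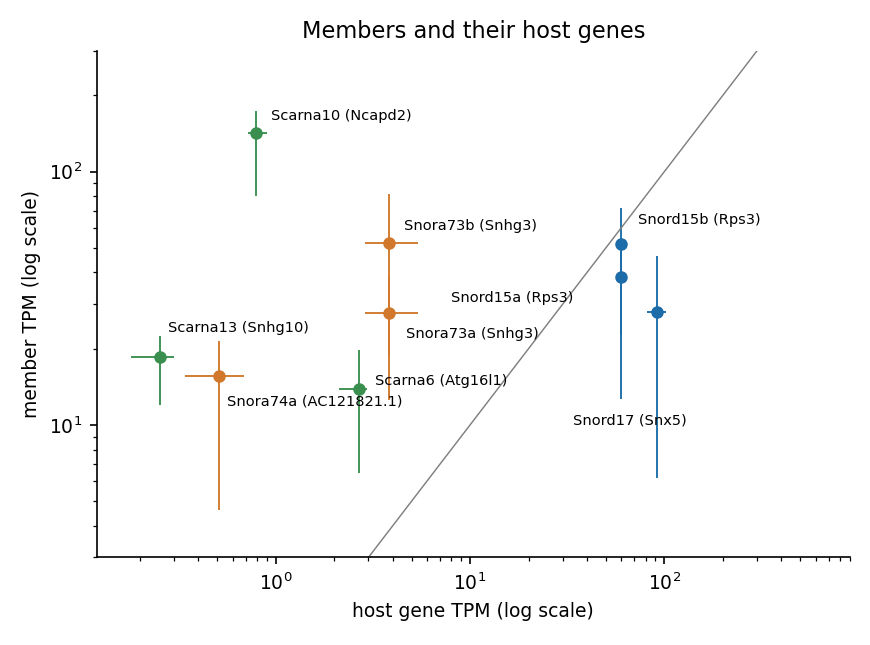
Member TPM against host gene TPM (both log scales) for the 9 members with a host and a TPM above 0 in all libraries, coloured by class as box C/D (blue), box H/ACA (orange) and Cajal body (green); points are means of 3 libraries, bars run from the lowest to the highest library, and the line marks equality. Scarna10 lies farthest above the line and Snord17 farthest below it.

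The mRNAs of the proteins that build these particles were present at modest levels. Of 11 genes for box C/D proteins and their assembly factors, 10 reached detection, and the list's median was 2.68 TPM. Fbl, the methyltransferase, had 9.17, 9.06 and 10.1 TPM in replicates 1, 2 and 3, and the core proteins Nop56, Nop58 and Snu13 had means of 6.91, 9.68 and 10.9 TPM. Znhit6, an assembly factor, missed detection with 0.99 TPM in replicate 1. Of 8 genes for box H/ACA and Cajal body proteins, 4 reached detection, and the list's median was 1.72 TPM. The core proteins Nhp2, Nop10 and Gar1 averaged 13.7 ± 1.02, 5.34 ± 0.305 and 3.89 ± 0.775 TPM, and the assembly factor Naf1 2.50 ± 0.193 TPM. Dkc1, the pseudouridine synthase, was not detected by the threshold, with 1.03, 0.68 and 0.82 TPM, and neither were Shq1 (0.650 ± 0.0529), Wrap53 (0.947 ± 0.0551) and Coil (0.557 ± 0.0306), the last of these the coilin gene that marks Cajal bodies. Over all gene entries, 15.7% were detected. The summed TPM of the box C/D protein list was 51.9, 49.9 and 55.0, lowest in replicate 2, but its summed CPM was 113, 126 and 129, lowest in replicate 1.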

How the data were processed

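RNA of 3 libraries was analysed. Per the file headers and the listing deposited with each library, the authors made the gene tables from alignments to the transcriptome (mm10, GENCODE M21) and deposited expected counts, TPM, FPKM (not printed here) and a credibility interval of TPM, whose bounds were treated as a signal with no fixed sum. They deposited estimated counts and TPM per transcript in a second quantification made from the reads, summed here by gene. The aligner, the tools with their versions and the use of strand are not given in the sources at hand, so sense and antisense reads cannot be separated with certainty.

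CPM is the expected count divided by the library's total expected counts and scaled to the same sum as TPM. Members were matched by symbol and all 150 IDs were found. Hosts were the shortest gene on the same strand that holds a member and is no snoRNA or scaRNA. Expected counts were rounded for the dispersion test (edgeR 4.0.16, R 4.3.3, adjusted p threshold 0.05), which was tested on simulated data. Pandas 2.3.3 and Biopython 1.88 were used otherwise. Members named are those highest in CPM or TPM per class, most variable, longest, or most unlike between quantifications. Scarna3b, Scarna8, Scarna9, Scarna17, Snord104, Snord53 and the host genes with their members were named after their values were seen. Members and lists were chosen with earlier results of these data known. Alternatives were other scalings, filters, the second quantification and leaving out each replicate.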

Additional observations from a re-analysis of the deposited data

How the results depend on the processing

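Of 47 alternative values, 36 stayed within the limits set for them and 11 moved. Members with counts numbered 22, but 11 with at least 3 counts in every library, 11 with at least 10 counts on average, and 81 in the second quantification. The family's 0.0455% of TPM was 0.00564% of expected counts, 0.0139% of TPM in the second quantification and 0.136% of TPM outside 7SL and 7SK RNA. Members varying beyond counting error numbered 9, but 4 without replicate 2, while the share of all genes tested that vary was 62.1% and 37.9%. The class medians of members detected in the gene tables, on the log2(TPM + 1) scale, were 5.07 for box C/D, 4.70 for box H/ACA and 4.90 for Cajal body RNAs. The same members had 1.53, 2.37 and 3.41 in the second quantification, where box C/D was lowest and not highest. The TPM scales of the 2 quantifications differ, so TPM levels do not compare directly between them. The median ratio of member to host was 7.61 in TPM and 1.59 in counts per annotated length. Leaving out 1 replicate gave 10 to 11 detected members, 18 to 21 members with counts, 0.0396% to 0.0570% of TPM, 4 to 10 varying members, class medians of 4.74 to 5.71, 4.40 to 5.17 and 4.75 to 5.19, and host ratios of 5.54 to 9.23. No paired analysis was possible because the libraries form 1 group. Depth limits the members under 10 counts. An effective length of 0 limits the RNAs of up to 127 nt in replicate 2 and 132 nt in replicates 1 and 3. There, 0 counts do not show absence. The same holds just above that edge. Snord118, at 135 nt, had 0 counts in the gene tables but 9, 27 and 29 in the second quantification.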
